A study of Mus musculus with 8 samples.

Results

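Hydroxysteroid dehydrogenases and steroid reductases convert steroid hormones between active and inactive forms in the liver and other tissues. The transcripts of 10 of these enzymes, named Hsd3b2, Hsd3b3, Hsd3b5, Hsd3b6, Hsd11b1, Hsd17b2, Hsd17b6, Hsd17b11, Hsd17b13 and Srd5a1, were compared between livers of NZO and B6 mice. The members were taken by gene name among the 55681 probes of the array that are not controls, which gave 15 probes for the 10 genes out of 34836 gene names. Each probe was kept on its own.

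Livers came from 4 male New Zealand Obese mice (strain label NZO/HiBomDife, an obese and diabetes-susceptible inbred strain) and 4 male C57BL/6 mice (B6, lean and diabetes-resistant). All 8 animals were 6 weeks old, and both strains had received a high-fat diet with 45% fat, so the diet does not separate the groups. RNA of each mouse was hybridised to a one-colour Agilent array, and mice are named by strain and number. Each array has 59305 spots, of which 50.4% (NZO 003) to 60.1% (B6 011) were well above background, and none was saturated. The 75th percentile of the signal was 119 to 142 intensity units for NZO and 136 to 159 for B6. Precision is limited by having 4 arrays per strain. Strain, and everything that differs between 2 inbred strains, cannot be told apart from obesity in this design, and in whole liver fewer cells of a type cannot be told apart from less RNA per cell. The hepatocyte markers Alb, Ttr, Apoa1, Cps1 and Tat were above background on all arrays, and none of these 5 was called different.

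Steroid hormones differ in activity by the oxidation of single hydroxyl groups and by the saturation of the A ring. The 3β-hydroxysteroid dehydrogenases turn hydroxysteroids into ketosteroids or, in the case of the liver forms such as Hsd3b5, act mainly as ketosteroid reductases. The 17β-hydroxysteroid dehydrogenases switch androgens and estrogens between strong and weak forms, although several members of that family work mainly on retinoids or lipids. The 11β-hydroxysteroid dehydrogenase Hsd11b1 regenerates active glucocorticoid in liver, and the 5α-reductase Srd5a1 begins the breakdown of androgens, glucocorticoids and other ketosteroids. In the mouse, several of these liver genes are expressed at different levels in males and females.

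Probe sequences were compared only in pairs, among the Hsd3b probes, by their longest shared run. No probe was aligned to a transcript, so whether a probe also detects transcripts of related genes was not tested. All probes are 60 bases long and lie on the sense strand of the transcript. Their positions are given in the build of the files, mm9, and exon or intron was not analysed here because no annotation of that build was used. The 3 probes named for Hsd3b2, of which the middle one differed between the strains, are shown from the most upstream to the most downstream, the first whole and the others as their first 30 bases. The capitals mark the 16 bases that the middle probe shares without a gap with the probe of the neighbouring Hsd3b3.
Hsd3b2 probe 1 (chr3:98515703-98515762, minus strand): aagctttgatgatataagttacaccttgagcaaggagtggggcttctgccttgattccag
Hsd3b2 probe 2 (chr3:98515054-98515113, minus strand): gccCAATGGAAGAAACAATtatttgtcaat
Hsd3b2 probe 3 (chr3:98513725-98513784, minus strand): tgaagtatggacactatgcccctccttaga
Hsd3b3, bases 27 to 56 of the probe (chr3:98545455-98545514, minus strand): tgaagctCAATGGAAGAAACAATaaatatt

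The longest run shared by a member probe with any other Hsd3b probe was 23 bases, between Hsd3b5 and Hsd3b4, and is in capitals in the following pair. The differing letters around it show that the probes are not copies of each other.
Hsd3b5, bases 31 to 60 of the probe (chr3:98422576-98422635, minus strand): ttgATACCTTTATGAAGCTCAAAGAAcaat
Hsd3b4, bases 24 to 53 of the probe (chr3:98303020-98303079, minus strand): cccATACCTTTATGAAGCTCAAAGAAaaga

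For the 17β-hydroxysteroid dehydrogenases and the reductase, the probes with a strain difference are shown, for Hsd17b13 and Srd5a1 beside a probe of the same gene that was not called; Hsd17b6 has a single probe. Hsd17b6 and the first Hsd17b13 probe are whole, the others are their first 30 bases, and the capitals mark a stop codon that closes the single reading frame of that probe with no earlier stop.
Hsd17b6 (chr10:127431580-127431639, minus strand): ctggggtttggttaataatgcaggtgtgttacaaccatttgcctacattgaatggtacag
Hsd17b13 probe 1 (chr5:104392792-104392851, minus strand): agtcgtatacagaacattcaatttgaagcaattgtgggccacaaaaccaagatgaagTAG
Hsd17b13 probe 2 (chr5:104384701-104384760, minus strand): tacccatgccttggtatatgagtatctgtg
Srd5a1 probe 1 (chr13:69712376-69712435, minus strand): agaggaatcttgtcttaacactatactcta
Srd5a1 probe 2 (chr13:69733518-69733577, minus strand): ctgaaagtttacatcgtgaaccacagttag

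Most of the 10 enzymes did not pass the test between the strains. Of the 15 probes, 14 were detected well above background in every mouse of one strain or of both and were tested with limma. A probe was called when its Benjamini-Hochberg adjusted p over all probes was at most 0.05 and its log2 difference at least 0.7 (1.62-fold) in either direction. By this rule 1 member probe was called higher in NZO, where 4.34% of the 27643 tested probes were called higher, and 3 were called lower, where 5.28% were called lower. The called probes belonged to Hsd3b2 (higher) and to Hsd17b6, Hsd17b13 and Srd5a1 (lower), and 6 of the 10 genes had no called probe. Of the 3 lower probes, those of Hsd17b13 and Srd5a1 were tested only because B6 was detected. Of the called genes, Hsd17b6 alone has a single probe. In Hsd3b2, Hsd17b13 and Srd5a1 the brightest probe of the gene, by its mean level over all 8 arrays, was not called; for Hsd3b2 that choice depends on the B6 arrays, since on every NZO array the called probe gave the higher signal. The median NZO minus B6 difference over the 14 tested member probes was −0.16 on the log2 scale, beside 0.014 over all tested probes. The 4 values of one strain lay entirely above those of the other for 2 member probes with NZO above and for 4 with B6 above, while 11.3% and 10.7% of all tested probes did so.

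**Figure D1:**
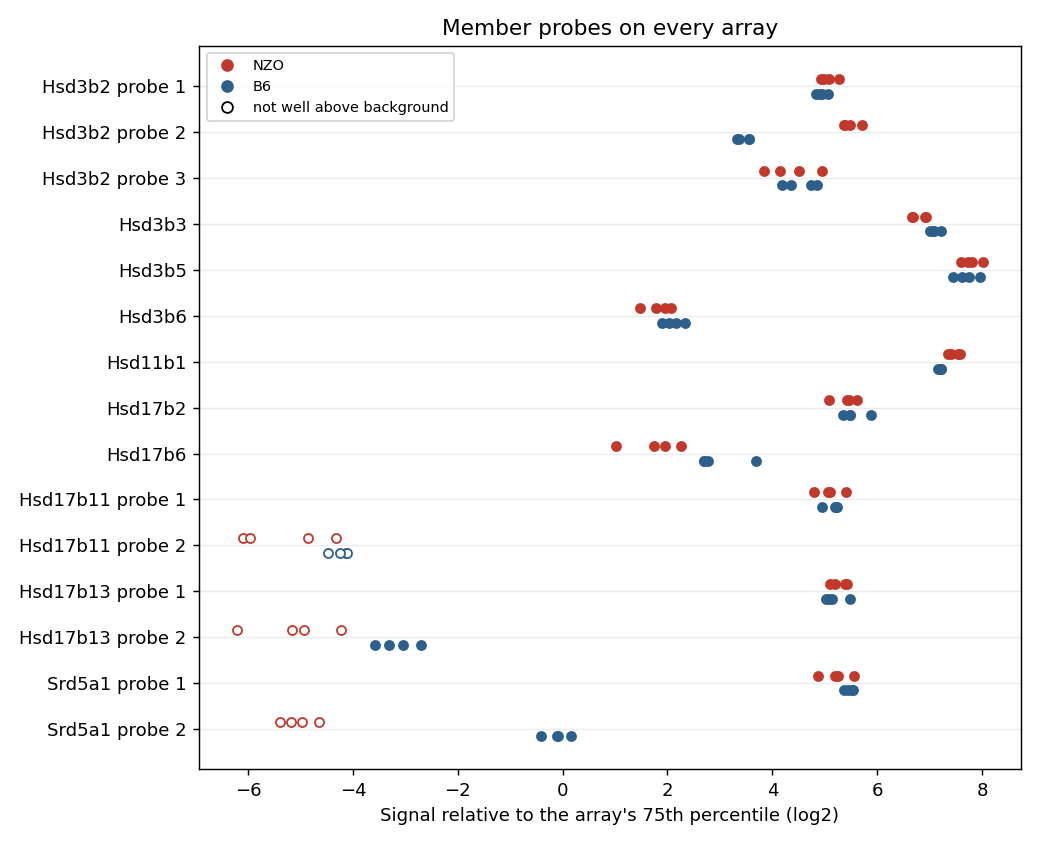
Level of each of the 15 member probes on the 4 NZO and 4 B6 arrays, in log2 units relative to the 75th percentile of the array; open circles are arrays where the probe was not well above background. The strains separate widely at the second Hsd3b2 probe, with NZO between 5.37 and 5.71 and B6 between 3.33 and 3.55, and at the second Srd5a1 probe, where all 4 NZO arrays are open circles.

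In the Hsd3b cluster on chromosome 3, one Hsd3b2 probe was higher in NZO, while the other 2 Hsd3b2 probes and those of Hsd3b3, Hsd3b5 and Hsd3b6 were not called. Hsd3b2 encodes a 3β-hydroxysteroid dehydrogenase, and its gene occupies chr3:98711107-98724543 on the minus strand of GRCm38.p6. All levels that follow are log2 values relative to the 75th percentile of the array, in the order 007, 003, 009 and 011 for NZO and 011, 010, 015 and 009 for B6. The second Hsd3b2 probe stood at 5.37, 5.71, 5.47 and 5.39 in NZO and at 3.55, 3.33, 3.36 and 3.55 in B6. Every NZO array was above every B6 array, and the gap between the groups was much wider than the spread within either. The difference was 2.04 ± 0.11 (log2, SE, n = 4 per strain), which is 4.11-fold, with a limma adjusted p of 1.48e-05. It was 2.19 among the 5 arrays scanned on the first day, 1.81 among the 3 scanned on the second and 2.37 on the one slide that held both strains. The second day and that slide each held only 1 NZO array, and the slide was scanned on the first day.

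The neighbouring Hsd3b2 probes gave another picture. The first probe, 649 bases upstream of the called one, stood at 4.93, 5.27, 5.08 and 4.99 in NZO and at 5.07, 4.95, 4.82 and 4.90 in B6. The strains overlapped, and the difference was 0.13 ± 0.11 (log2, SE; 95% confidence interval −0.12 to 0.38; limma adjusted p = 0.493). The third probe, 1978 bases downstream of the first and named in the files for an Ensembl transcript, stood at 4.16, 3.85, 4.94 and 4.52 in NZO and at 4.35, 4.74, 4.86 and 4.18 in B6. It spread most widely within the NZO strain among the 3, and its difference was −0.17 ± 0.25 (log2, SE; 95% confidence interval −0.75 to 0.42; limma adjusted p = 0.713). What sets the middle probe apart from the other 2 was not tested.

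**Figure D2:**
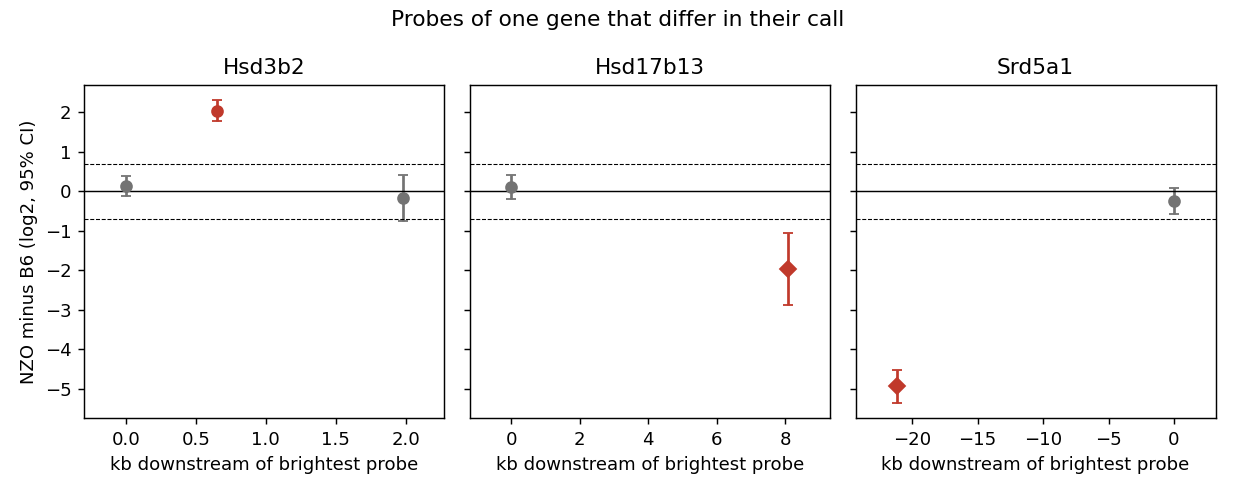
NZO minus B6 difference of each tested probe (log2, bars are 95% confidence intervals) against its distance along the gene from the brightest probe of the gene in kilobases, for Hsd3b2, Hsd17b13 and Srd5a1; red symbols are called, diamonds are probes at background on all NZO arrays, whose fitted difference is not a measured fold, and dashed lines mark 0.7 in either direction. In each gene the brightest probe, at 0, lies near no difference while another probe of the same gene is called, with values of 2.04, −1.97 and −4.93.

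Hsd3b3, a further 3β-hydroxysteroid dehydrogenase of the cluster, stood at 6.66, 6.91, 6.69 and 6.92 in NZO and at 7.22, 7.07, 7.06 and 7.002 in B6. All B6 arrays were above all NZO arrays by a small margin, and the difference of −0.30 ± 0.11 (log2, SE) missed the threshold with a limma adjusted p of 0.109. This probe shares its 16-base run with the Hsd3b2 probe that was called higher, and its own difference ran the other way. Whether either probe also detects the transcript of the other gene was not tested.

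Hsd3b5, the ketosteroid reductase of male mouse liver, stood at 7.73, 8.02, 7.81 and 7.60 in NZO and at 7.96, 7.76, 7.44 and 7.62 in B6. The strains overlapped along most of their range. The difference was 0.09 ± 0.14 (log2, SE), with a 95% confidence interval of −0.24 to 0.42 and a limma adjusted p of 0.722, so that a difference as large as 0.7 in either direction lay outside the interval. Hsd3b6, known from the testis and adrenal as well, stood at 1.47, 2.07, 1.78 and 1.96 in NZO and at 2.02, 2.34, 2.17 and 1.89 in B6. These groups overlapped too, with a difference of −0.28 ± 0.16 (log2, SE; limma adjusted p = 0.288).

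Hsd11b1, which regenerates corticosterone from its inactive keto form with NADPH made by H6pd, differed little. It is the member with the most spots, 10 on each array, and the standard deviation among these spots was between 0.032 and 0.062 within an array. The averaged level was 7.35, 7.57, 7.54 and 7.41 in NZO and 7.22, 7.16, 7.20 and 7.22 in B6. Each NZO array was above each B6 array. The difference was 0.26 ± 0.09 (log2, SE), which is 1.20-fold, with a 95% confidence interval of 0.06 to 0.47 and a limma adjusted p of 0.094, so it was not called. Its size depended on the scaling. It was 0.12 with quantile normalization, 0.034 without scaling between arrays and 0.038 in the deposited values. The difference was −0.02 for H6pd (limma adjusted p = 0.929). For the glucocorticoid receptor Nr3c1 it was 0.02 (limma adjusted p = 0.930), and for the plasma carrier Serpina6, corticosteroid-binding globulin, 0.69 (limma adjusted p = 0.00274), just under the size needed for a call. These 3 genes were picked after their values were seen.

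Of the 17β-hydroxysteroid dehydrogenases, Hsd17b6 was lower in NZO. This enzyme oxidises androstanediol back towards dihydrotestosterone and also acts on retinol. Its gene lies at chr10:127990931-128007648 on the minus strand of GRCm38.p6. Its level was 1.75, 1.95, 2.25 and 1.02 in NZO and 2.77, 2.69, 3.69 and 2.69 in B6. No NZO array reached the lowest B6 array. NZO 011 was the lowest array of its strain and B6 015 the highest of its own. Only B6 015 was flagged in the search for single arrays far from the rest. The difference was −1.22 ± 0.32 (log2, SE), so that B6 was 2.33-fold above NZO, with a limma adjusted p of 0.0366. The direction was the same among the arrays of the first scan day (−1.45), of the second (−0.98) and on the slide with both strains (−1.24), but with slide as a fixed term the call was lost (adjusted p = 0.366). The second scan day and that slide each held only 1 NZO array, and the slide was scanned on the first day. The call was close to its threshold: with 1 mouse left out it was lost for 7 of the 8 mice, that is for each mouse except NZO 009, with adjusted p between 0.0330 and 0.0719 and differences between −1.39 and −0.97. Without B6 015 the difference was −0.97 with an adjusted p of 0.0683, and without NZO 011 it was −0.98 with an adjusted p of 0.0659.

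Hsd17b2, which inactivates estradiol and testosterone by oxidation, stood at 5.46, 5.42, 5.61 and 5.08 in NZO and at 5.88, 5.49, 5.48 and 5.34 in B6. The strains overlapped, and the difference was −0.15 ± 0.16 (log2, SE; 95% confidence interval −0.52 to 0.21; limma adjusted p = 0.574).

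Hsd17b11 and Hsd17b13 are neighbours on chromosome 5 and encode proteins that sit on lipid droplets. Hsd17b13 is known for human variants linked to fatty liver disease. The main Hsd17b11 probe stood at 5.06, 5.41, 4.80 and 5.10 in NZO and at 5.19, 4.94, 5.22 and 5.23 in B6, and its difference was −0.05 ± 0.14 (log2, SE; limma adjusted p = 0.845). The second Hsd17b11 probe, 11670 bases upstream, was well above background on 1 B6 array and on no NZO array and was not tested. The first Hsd17b13 probe, which ends at the stop codon shown above, stood at 5.11, 5.43, 5.39 and 5.19 in NZO and at 5.13, 5.09, 5.48 and 5.02 in B6. The arrays of the strains were mixed in order, and the difference was 0.10 ± 0.13 (log2, SE; 95% confidence interval −0.21 to 0.41; limma adjusted p = 0.676).

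The second Hsd17b13 probe, 8091 bases downstream of the first and assigned by the files to another RefSeq transcript, was lower in NZO but near the limit of detection. It stood at −2.71, −3.04, −3.32 and −3.58 in B6, well above background on all 4 arrays, and was not well above background on any NZO array. Where a strain was at background, the fold is given as a bound, with each array of that strain set to its own value or, if higher, to the weakest signal that still counted as detected on the same array. By this measure the probe was at least 2.01-fold lower in NZO (limma adjusted p = 0.0116). Its call was lost with normexp background correction, where the difference was −0.16, and in the deposited table, where it was −0.58.

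In the main fit Srd5a1, the 5α-reductase of liver, gave the widest contrast between its own probes. With normexp background correction the contrast was wider in Hsd3b2 (1.96 against 0.064 and −0.19) than in Srd5a1 (−1.62 against −0.31). The first probe stood at 4.87, 5.56, 5.19 and 5.25 in NZO and at 5.44, 5.53, 5.38 and 5.51 in B6. NZO 003 was the highest of all 8 arrays and NZO 007 the lowest, and the difference was −0.25 ± 0.15 (log2, SE; 95% confidence interval −0.59 to 0.09; limma adjusted p = 0.315). The second probe, 21142 bases upstream of the first and named in the files for an Ensembl transcript, stood at −0.11, −0.09, −0.41 and 0.15 in B6 and was not well above background on any of the 4 NZO arrays. It was at least 16.7-fold lower in NZO, with a limma adjusted p of 2.18e-06. Because NZO was at background, the size depends on how background is treated: the fitted difference was −4.93, but −1.62 with normexp background correction and −2.57 in the deposited values, called in each case. The gene occupies chr13:69573449-69611485 on the minus strand of GRCm38.p6. What sets the second probe apart from the first was not tested.

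**Figure D3:**
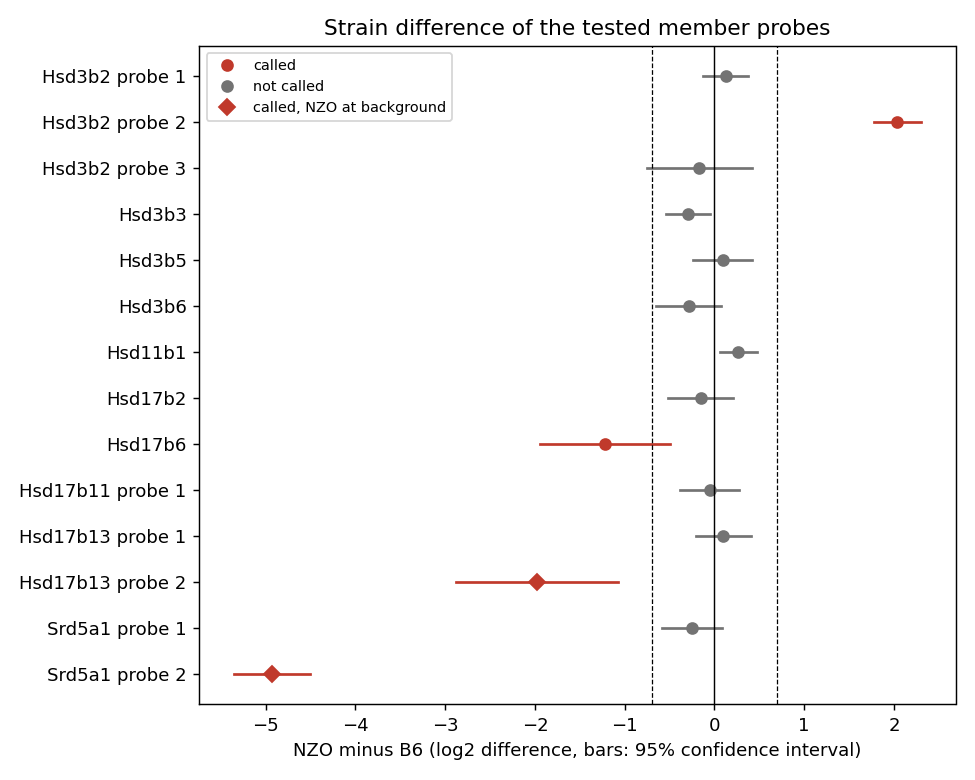
NZO minus B6 difference of the 14 tested member probes on the log2 scale, with 95% confidence intervals from limma; red symbols are called, diamonds are probes at background on all NZO arrays, and dashed lines mark 0.7 in either direction. The 10 grey probes lie between −0.30 and 0.26, and the red ones at 2.04, −1.22, −1.97 and −4.93.

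Enzymes related to the members, from the same families or reductions, held 4 genes that were higher in NZO and none that was lower at the brightest probe. Of 22 listed genes, 16 had a tested probe, 12 of them were not called, and the median difference was 0.19. Among the 15 genes detected in every mouse of both strains, 3 were higher, 0 were lower and 12 were not called. Akr1c18, which inactivates progesterone, stood at 4.58, 4.81, 4.83 and 4.52 in NZO and at −1.28, −1.23, 0.57 and −1.89 in B6. B6 015 was set apart from the other B6 arrays by a higher level, and the difference was 5.64 ± 0.46 (log2, SE), or 49.9-fold (limma adjusted p = 0.000117). Hsd3b1, the 3β-hydroxysteroid dehydrogenase of adrenal and gonads, stood at −1.40, −2.004, −1.66 and −2.54 in NZO and was not well above background on any B6 array. It was tested only because NZO was detected, and was at least 6.04-fold higher in NZO (limma adjusted p = 8.40e-05).

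Hsd17b7, which takes part in cholesterol synthesis, was 2.75-fold higher (1.46 ± 0.15 on the log2 scale, SE; limma adjusted p = 0.000372), and its other 2 probes were called higher as well. Hsd3b4 was 2.44-fold higher (1.29 ± 0.20 on the log2 scale, SE; limma adjusted p = 0.00358) at the probe that shares 23 bases with Hsd3b5, whose own difference was 0.09. Whether the Hsd3b4 probe also detects Hsd3b5 transcripts was not tested. Apart from Hsd3b1, no marker of steroid-making tissue was called higher. Cyp11a1, Cyp11b1 and Cyp11b2 were at background on all 8 arrays, and Star, Nr5a1 and Cyp21a1 were not called at their brightest probes. A second Cyp21a1 probe was lower in NZO. The summed level of the list, led by Cyp21a1, ranged from 2.69 to 3.67 in NZO and from 2.63 to 3.90 in B6 (log2).

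Among carriers and receptors of steroids, with the cofactor supply, no tested gene was called lower in NZO at the brightest probe. Shbg, the plasma carrier of sex steroids, was at background in all B6 arrays and at −0.68, −2.29, −1.47 and −2.38 in NZO, at least 6.92-fold higher (limma adjusted p = 0.000240). Shbg was tested only because NZO was detected. Among the 8 genes of this list detected in every mouse of both strains, none was called. Among 17 tested enzymes that conjugate or oxidise steroids, none was called higher and 3 were lower in NZO at the brightest probe, with a median difference of −0.11. A second probe of Cyp3a11, a cytochrome that hydroxylates steroids, was 2.92-fold higher (limma adjusted p = 0.00478), while its brightest probe had a difference of 0.0073. The sulfotransferase Sult1a1 was 2.37-fold lower (limma adjusted p = 0.00344), the cytochrome Cyp3a25 was 1.83-fold lower (limma adjusted p = 0.010), and the glucuronosyltransferase Ugt2b34 was 1.63-fold lower (limma adjusted p = 0.0130).

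Genes known for sex-biased expression in mouse liver were measured beside Hsd3b5, which belongs among the male-biased ones. Of 15 tested male-biased genes other than members, 12 were not called, 2 were higher and 1 was lower in NZO, with a median difference of 0.08. The fatty acid hydroxylases Cyp4a12b and Cyp4a12a were 2.50-fold and 2.46-fold higher (limma adjusted p = 0.00193 and 0.00115), and the complement component C6 was 1.67-fold lower (limma adjusted p = 0.0405). A second probe of the urinary protein gene Mup20 was 3.61-fold lower (limma adjusted p = 0.000398), while its brightest probe had a difference of −0.18, and over the probes of the list 2 were called higher and 2 lower. Of 13 tested female-biased genes, 7 were higher and 2 were lower in NZO. Of the 7, 5 were at background in all B6 mice and were tested only because NZO was detected. Among the 8 genes detected in every mouse of both strains, 2 were higher, 2 were lower and 4 were not called, with a median difference of 0.69. Cyp3a44 was at least 63.5-fold and the peroxisomal oxidase Hao2 at least 41.8-fold higher, both against B6 arrays at background, and Cyp3a41b was 45.4-fold higher (limma adjusted p = 4.30e-06, 7.42e-07 and 2.89e-06). A1bg was at least 4.24-fold higher (limma adjusted p = 0.000229). All 8 animals are labelled male, Xist was detected in no mouse, and the Y-linked Ddx3y and Eif2s3y were detected in every mouse. Kdm5d, also Y-linked, was at background in every mouse of both strains.

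Lipid droplet genes, read beside Hsd17b11 and Hsd17b13, held no called gene at the brightest probe among 14 tested, with a median of 0.19. One further probe of the list, a second probe of Pnpla3, was called higher in NZO.

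**Figure D4:**
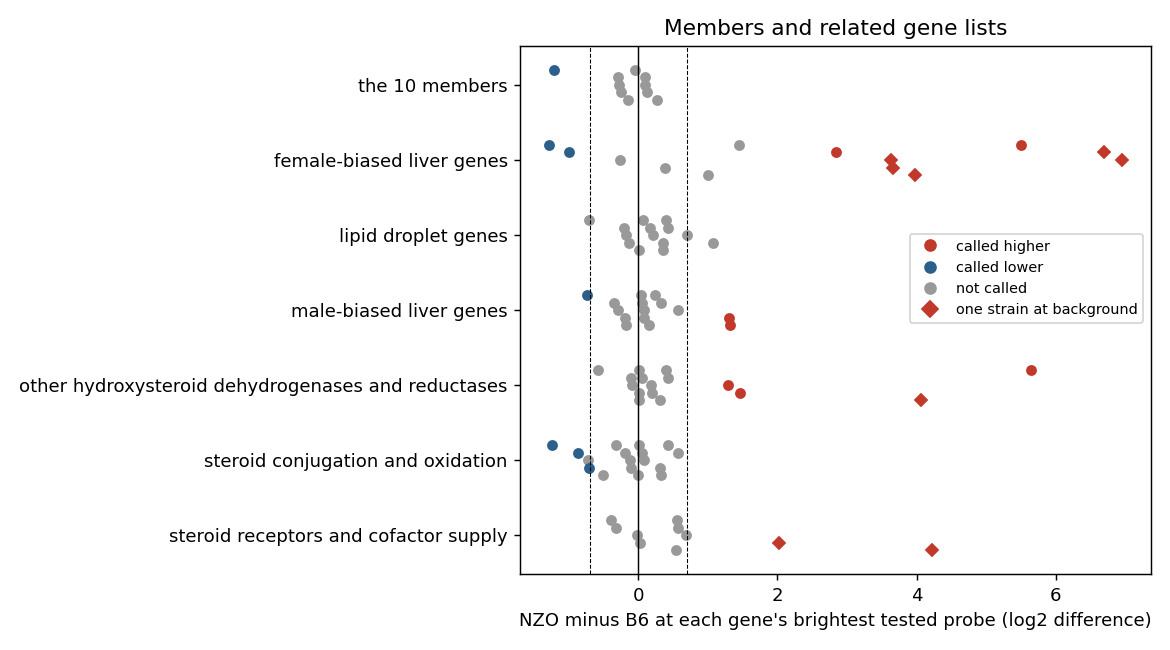
NZO minus B6 difference on the log2 scale at the brightest tested probe of each gene, for the 10 members and 6 lists of related genes; symbols are coloured by call, diamonds are genes at background on all arrays of one strain, whose fitted difference is not a measured fold, and dashed lines mark 0.7 in either direction. Among the 10 members only Hsd17b6 is called at its brightest probe, and 5 of the 7 female-biased genes called higher are diamonds.

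Markers of other cell types were read for the whole liver samples, and their part in the member results was not tested. Of the red blood cell markers, 2 of 4 were higher in NZO (Hba-a1 by 1.00 and Alas2 by 0.90, log2), although 1 was called with quantile normalization and 0 without scaling or in the deposited values, and their summed level, led by Hba-a1, was 8.19 to 8.88 in NZO and 7.28 to 7.70 in B6, with no overlap. Among 5 leukocyte genes, Itgax was lower in NZO (−2.04; limma adjusted p = 0.0358), a call that was lost with normexp background correction, and the summed level, led by Cd3e, was 3.44 to 4.23 in NZO and 3.44 to 3.74 in B6. The adipocyte markers Adipoq, Plin1 and Lep were at background on all arrays, and none of the tested adipocyte genes was called. The summed level, led by Car3, was 9.14 to 9.33 in NZO and 8.68 to 8.91 in B6, with no overlap. That sum followed Car3, which differed by 0.47 (log2). Cidec differed by 0.42 and Fabp4 by −0.30, and for both genes the strains overlapped. The pancreatic markers Cela3b, Pnlip, Cpa1 and Prss2 were at background on all arrays, and the summed level, led by Ctrb1, was 0.44 to 1.20 in NZO and 0.37 to 0.81 in B6. The muscle list, led by Myh4, was uneven, with a summed level of 4.03 in NZO 007 and 2.46 in B6 010 against −2.43 to −1.37 in the other NZO mice and −1.495 to 0.47 in the other B6 mice. The kidney markers Umod and Slc22a12 were at background on all arrays, and no kidney gene was called; the summed level, led by Slc34a1, was −2.84 to −0.78 in NZO and −1.81 to −1.12 in B6. Leaving out NZO 007 or B6 010 kept 1 member probe called higher and ended the call of Hsd17b6 alone.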

How the data were processed

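RNA of 8 mouse livers was measured on one-colour Agilent arrays. Per the file headers, the deposited scanner files were made by Feature Extraction (11.0.1.1; 9.1 in the submitters' processing notes, build mm9). The processed signal in them is the intensity after background subtraction, without scaling between arrays. The deposited table of the whole series held raw median intensities (59305 of 59305 spots on each array, tolerance 0.01) and was an alternative.

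Control spots and spots marked as outliers (between 96 and 137 on an array) were dropped, log2 values minus the 75th percentile of each array were averaged over the spots of a probe, and the 27643 probes detected well above background in every mouse of one strain or of both were compared with limma 3.58.1 in R 4.3.3 (package data.table, version 1.17.8), tested on simulated data first. Called meant a Benjamini-Hochberg adjusted p of at most 0.05 and a log2 difference of at least 0.7. The thresholds of the methods use an unadjusted p, which was an alternative. Probes were matched to GRCm38.p6 gene names by accession (27656), symbol (3401) or synonym (321), and 24303 kept the name in the files. Hsd3b8, Hsd3b9, Hsd17b8, Mup7 and Cyp3a41a were not analysed here, and some items are not reported here. Gene lists were read at the brightest tested probe (highest mean over the 8 arrays), and by rule up to 4 called genes per list were named. Cyp2a4, Prom1, H6pd, Nr3c1, Serpina6 and second probes of listed genes were named after their values were seen. Alternatives were another background correction, scaling, filter, source, test, slide, scan day, mouse number and each mouse left out. The arrays lay on 5 slides scanned on 2 days. The members and lists were chosen with earlier results of these data known. P-values measure the spread between single animals of a strain. Plots were made with matplotlib 3.10.9.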

Additional observations from a re-analysis of the deposited data

Results flagged for a closer look

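In each strain, the 4 values of each tested member probe were searched for a single array far from the rest, and 2 of 28 such sets had one, where chance gives about 1 in 20. Hsd17b6 in B6 015 stood at 3.69, while the next B6 array stood at 2.77. Hsd17b11 in B6 010 stood at 4.94 at its main probe, below the next B6 array at 5.19.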

How the results depend on the processing

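Between the strains, 1199 probes were called higher and 1460 lower in NZO, so that 45.1% of the calls were higher. Without scaling between arrays the counts were 771 and 2506 (23.5% higher) and the median of all probes moved from 0.014 to −0.22, and with the values as deposited, 576 probes were called higher, 28.8% of the calls, with a median of −0.15. With normexp the counts were 616 and 583. With probes above background on all 8 arrays, 964 were called lower, 1 of them a member. With slide as a fixed term, 497 were called higher. The methods' t-test after adjustment called 890 lower, 1 of them a member; without adjustment it called 1292 higher and 1609 lower. With 1 mouse left out, 1 member was called higher and 2 to 3 lower each time, and 1072 to 1239 probes were higher and 1227 to 1461 lower.

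The mouse numbers 009 and 011 occur in both strains, and no label ties them to a litter, batch or day. With the mouse number as a replicate block, 0 member probes were higher and 1 was lower, and 72 and 134 of all probes; the Hsd3b2 difference was 1.88 (adjusted p = 0.0556). Deviations from the strain means correlated by −0.26 for number 009 and by −0.0040 for 011. Each value comes from a single pair of arrays, so it cannot tell whether the samples share more than a number.

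Over 180 recomputed member differences from the other settings, 171 kept their side of the threshold and 9 lost the call. Most of the 180 belong to the 10 uncalled probes, which had no call to lose and gained none. The call was lost in 4 of 13 settings for Hsd17b6 and in 4 of 12 for the second Hsd17b13 probe. It was lost in 1 of 13 for Hsd3b2 and in 0 of 12 for Srd5a1. None of the 4 called differences turned its sign. Uncalled differences of Hsd3b2, Hsd3b5, Hsd17b11, Hsd17b13 and Srd5a1 changed sign under at least 1 setting. Hsd17b6 lost its call with no filter, slide as a fixed term, the block and the adjusted t-test (adjusted p 0.0909, 0.366, 0.262 and 0.100; range over the settings 0.00488 to 0.366), the second Hsd17b13 probe under 4 settings and Hsd3b2 under the block. The causes were not tested. Of the 9 called female-biased genes, 7 kept their call with normexp, and of the 4 called related dehydrogenases and reductases, 3 did. Signal near background limits the second probes of Hsd17b13 and Srd5a1, whose differences depend on how the background is treated, with −1.62 as the smallest fitted value of the latter.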

Other observations

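The probes whose 8 levels lay closest to those of Hsd17b6 (Euclidean distance over the 8 arrays, log2) were Cd3d, a subunit of the T cell receptor complex, at 0.50, Itm2a at 0.65 and the citrate transporter Slc13a5 at 0.71. Their NZO minus B6 differences were −1.10, −0.90 and −1.19. Among the probes closest to Hsd11b1 were Acd and 1300017J02Rik, at distances of 0.075 and 0.10, with differences of 0.25 and 0.26.

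B6 015, the highest B6 array for Hsd17b6, was also the highest B6 array for Akr1c18 (0.57, against −1.23 to −1.89 in the others) and for Cyp2a4 (6.90, against 5.70 to 6.14), genes noticed after their values were seen. Cyp2a4, a female-biased steroid hydroxylase, was 2.44-fold lower in NZO (limma adjusted p = 0.0116). The membrane protein Prom1, also female-biased and named after its value was seen, was 1.99-fold lower in NZO (limma adjusted p = 0.00192).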
